A study of Mus musculus with 4 samples.

Results

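Fkbp5, Tsc22d3, Per1, Ddit4, Klf9 and Sgk1 are glucocorticoid-responsive genes, and their transcripts were followed here in macrophages, T cells and B cells of the mouse peritoneal cavity. They are 6 of the 33696 genes in the expression matrices and were chosen by name, with the identifiers ENSMUSG00000024222, ENSMUSG00000031431, ENSMUSG00000020893, ENSMUSG00000020108, ENSMUSG00000033863 and ENSMUSG00000019970 in that order. The low level of Fkbp5 in macrophages of the high-fat library, and of glucocorticoid targets in that class generally, was already known when they were chosen, so their values in macrophages are given as a description. The question was whether lymphocytes share the lower Fkbp5.

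The mice were wild type (WT) and were fed chow (CD) or a high-fat diet (HFD) for 3 months from an age of 4 weeks. A treatment note in the labels puts both groups on the high-fat diet, and the diets were taken from the sample titles and the design text instead. Cells were washed from the cavity, sorted for the leukocyte surface protein CD45 and profiled by droplet single-cell RNA sequencing, with 1 expression library and 1 B-cell receptor library per diet. The labels do not say how many mice each library holds or whether mice were pooled, nor the hour of collection. Every difference below is therefore a difference between 2 libraries, without a test, and every interval is a 95% interval of counting error only.

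After barcodes with under 300 genes or over 10% mitochondrial unique molecular identifiers (UMIs) were left out, 13069 of 13227 CD barcodes and 6684 of 6897 HFD barcodes remained. Macrophages were barcodes with 5 or more UMIs of Adgre1, Prg4, Alox15 and Garnl3 together and no receptor contig, 2144 in CD and 1477 in HFD. T cells were barcodes with 2 or more UMIs of Cd3e, Cd3d and Cd3g together and no receptor contig, 1018 and 771. B cells were barcodes listed in the receptor table, 7112 and 3677. A further 99 CD and 49 HFD barcodes met both marker rules and were left out of both classes, and 2795 and 759 barcodes fell in no class, those included. The libraries have 30 barcode sequences in common, 15 of them in the same class in both.

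All 10 markers of the macrophage list, all 9 of the T list and all 7 of the B list were detected in each of these classes in both libraries. The macrophage and T lists include genes of the class rules, so this is no test of identity. Macrophage markers summed to 61725 CPM (UMIs of the gene per 1e+06 UMIs of the class) in CD macrophages, against 1773 in T cells and 4696 in B cells. T markers summed to 3309 CPM in CD T cells, against 70.8 in macrophages and 541 in B cells. B markers summed to 7619 CPM in CD B cells, against 944 in macrophages and 2189 in T cells. Depth differed most in macrophages, where the median barcode held 4873 UMIs in the CD library and 12309 in the HFD library. The medians were 3721 and 5045 in T cells and 4628 and 5983 in B cells. RNA of other cells was present in each class. From the B markers Cd79a, Cd79b and Ms4a1, B-cell RNA was estimated at 12.2% of the macrophage UMIs of CD and 2.68% of those of HFD, and in T cells at 28.1% and 7.66%. Macrophage RNA was estimated at 7.58% of the B-cell UMIs of CD and 4.76% of those of HFD. B barcodes included 424 in CD and 103 in HFD that also met the macrophage rule, and 360 and 148 that met the T rule. T-cell RNA in B barcodes was not estimated. Values after subtraction of the estimated B-cell or macrophage RNA are given beside the genes it touches. Of the other cell types the sort could hold, all 4 erythroid markers together were under 1 CPM in each class and library, and mast-cell markers were under 3 CPM. Mesothelial markers were at 9.25 CPM or less. Neutrophil markers were at 111 and 99.2 CPM in macrophages and at 8.09 and 120 CPM in B cells, with 2 of the 4 at 0 in CD in both, and their part in the results was not tested. Natural killer markers reached 58.7 CPM in CD against 103 in HFD in T cells, and dendritic cell markers 52.4 and 23.2 CPM there.

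Glucocorticoids cross the cell membrane and bind the glucocorticoid receptor, which is held in the cytoplasm by a complex of heat shock proteins and the immunophilins FKBP51 and FKBP52. The bound receptor moves to the nucleus and binds paired, inverted copies of a short element on DNA. Its targets include its own brakes: Fkbp5 encodes FKBP51, which lowers the receptor's affinity for hormone. Tsc22d3 encodes GILZ, a leucine zipper protein that dampens NF-kB and AP-1, and in lymphocytes it is also a FOXO target. Per1 is a repressor of the circadian clock, Ddit4 encodes REDD1, an inhibitor of mTORC1 that also responds to hypoxia and energy stress, Klf9 is a zinc finger transcription factor, and Sgk1 is a kinase related to AKT that controls ion transport. Several of them therefore answer to other signals as well.

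The receptor's element was searched for in the 250 bases before each annotated start, with RefSeq windows of build GRCm38.p6, an older build than the mm39 named in the submitters' processing notes. All 6 genes matched, with 14 windows in all. The full palindrome, the arms AGAACA and TGTTCT with any 3 bases between them, was found in 1 of the 14, before a start of Sgk1, and in 3 of all 32851 windows (0.00913%). The E-box CACGTG, bound by clock and other helix-loop-helix factors, was found in 1 window each of Fkbp5, Per1 and Sgk1, and in 6.02% of all windows. The windows of Fkbp5, Per1 and Sgk1 that hold an E-box are shown, and that of Sgk1 also holds the palindrome. Ddit4, Tsc22d3 and Klf9 hold no E-box in any of their windows. The part of these motifs in the differences between the libraries was not tested. Capitals mark the E-box and the palindrome.
Fkbp5, chr17:28486150-28486399, minus strand: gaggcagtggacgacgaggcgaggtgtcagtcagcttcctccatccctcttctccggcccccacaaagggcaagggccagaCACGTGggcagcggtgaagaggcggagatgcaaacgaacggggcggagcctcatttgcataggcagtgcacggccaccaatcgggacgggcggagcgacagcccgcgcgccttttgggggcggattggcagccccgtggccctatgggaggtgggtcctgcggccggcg
Per1, chr11:69098699-69098948, plus strand: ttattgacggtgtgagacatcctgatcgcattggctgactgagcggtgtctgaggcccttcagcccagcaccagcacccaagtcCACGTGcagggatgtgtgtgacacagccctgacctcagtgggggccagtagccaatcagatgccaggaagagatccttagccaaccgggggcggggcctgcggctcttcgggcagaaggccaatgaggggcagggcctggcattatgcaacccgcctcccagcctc
Sgk1, chr10:21993640-21993889, plus strand: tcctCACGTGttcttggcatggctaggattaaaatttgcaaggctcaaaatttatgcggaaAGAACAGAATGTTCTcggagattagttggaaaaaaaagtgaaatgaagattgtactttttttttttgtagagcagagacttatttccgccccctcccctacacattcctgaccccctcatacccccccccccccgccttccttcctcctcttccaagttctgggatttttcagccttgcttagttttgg
The E-box lay 169 bases before the start in Fkbp5 and 166 in Per1, and the palindrome 189 bases before the start in Sgk1. A single arm of the palindrome, AGAACA or TGTTCT, was in 16.1% of all windows and, outside the palindrome, in 1 window of Tsc22d3 and in 3 of Sgk1. The FOXO site TGTTTAC was in 3.17% of all windows and, on the other strand, in that of Klf9, and the cyclic AMP response element TGACGTCA was in 1.55% and in none of the 14. All motifs were searched on both strands. A match describes letters in a window and not a bound site, and known elements of these genes in introns or farther upstream were not searched.

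Fkbp5 was lowest in HFD macrophages. It was at 14.3 CPM (12.4 to 16.4) in CD macrophages, from 202 UMIs, and at 4.06 CPM (3.23 to 5.03) in HFD macrophages, from 83 UMIs. The log2 ratio of HFD over CD was -1.82 (-2.21 to -1.44), or 3.53-fold lower. In T cells it was at 16.96 CPM (13.4 to 21.1) in CD, from 80 UMIs, and 10.3 CPM (7.48 to 13.7) in HFD, from 45 UMIs (log2 ratio -0.73; -1.29 to -0.18). In B cells it was at 10.3 CPM (9.29 to 11.3) in CD, from 405 UMIs, and 8.49 CPM (7.42 to 9.68) in HFD, from 225 UMIs (log2 ratio -0.27; -0.52 to -0.04). In B barcodes with fewer than 2 macrophage-marker UMIs and no T-marker UMI, no difference was detectable (-0.09; -0.40 to 0.20). The ratio in macrophages lay below that in T cells by a log2 difference of -1.09 and below that in B cells by -1.54. These differences are a description, since the low macrophage level led to the choice of the gene. Among barcodes of 4000 to 12000 UMIs no difference between macrophages and T cells was detectable (-0.57; -1.61 to 0.43). Nor was one in barcodes with no UMI of the B markers Cd79a, Cd79b and Ms4a1 (-0.76; -1.97 to 0.45). Between T cells and B cells no difference of the ratios was detectable at this depth (-0.45; -1.06 to 0.14).

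**Figure D1:**
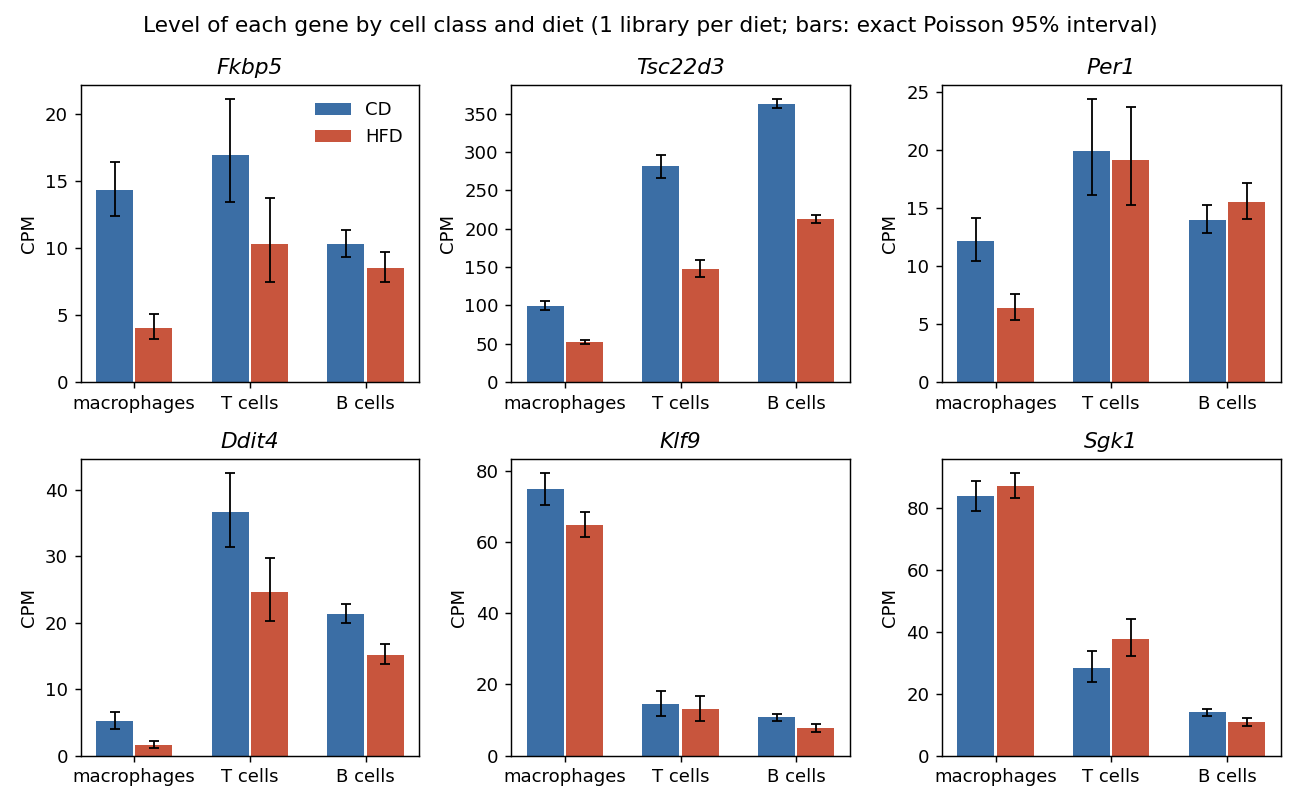
Level of each gene in CPM (vertical axes, each from 0) in macrophages, T cells and B cells, with CD in blue, HFD in red and exact Poisson 95% intervals. Fkbp5 in HFD macrophages stands at 4.06 CPM, below every other Fkbp5 bar, while Tsc22d3 is lower in HFD in all 3 classes and Klf9 and Sgk1 are highest in macrophages of both libraries.

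In CD the order of Fkbp5 levels was T cells, macrophages, B cells. T cells and macrophages did not differ beyond counting error (a log2 ratio of -0.24 for macrophages over T cells; -0.63 to 0.15), and macrophages were 1.39-fold above B cells. In HFD macrophages were the lowest class, 2.53-fold below T cells and 2.09-fold below B cells, and the levels of T cells and B cells did not differ beyond counting error (0.27; -0.22 to 0.74). Macrophages thus went from above B cells to below them.

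The low Fkbp5 of HFD macrophages was seen at each depth with enough UMIs to judge. Among barcodes of 5000 to 10000 UMIs it was at 12.3 CPM in CD against 5.59 in HFD (log2 ratio -1.14; -2.04 to -0.31). Among those of 10000 to 20000 UMIs it was at 15.8 and 3.99 CPM (-1.98; -2.66 to -1.34), and among those of 20000 or more at 10.2 and 3.66 CPM (-1.47; -2.38 to -0.50). Of the HFD barcodes below 5000 UMIs, those under 2500 held 1 Fkbp5 UMI in all and the rest 2, too few to judge.

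Few barcodes carried any Fkbp5 UMI, and few carried more than a single one. In macrophages 181 of 2144 CD barcodes had Fkbp5 (8.44%; 7.30 to 9.70) and 74 of 1477 HFD barcodes (5.01%; 3.95 to 6.25), with 18 and 7 of them at 2 or more UMIs. Thinned to 2000 UMIs each, with 250 CD and 64 HFD barcodes too shallow left out, the shares were 2.86% (2.15 to 3.70) and 0.824% (0.440 to 1.48). In T cells the thinned shares were 3.16% in CD and 2.10% in HFD, and in B cells 1.88% and 1.66%. No class was taken as one that should lack Fkbp5, so the share that free RNA gives could not be set beside these values. No barcode held more than 4 Fkbp5 UMIs in any of these classes, so no few barcodes carry the sums.

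**Figure D2:**
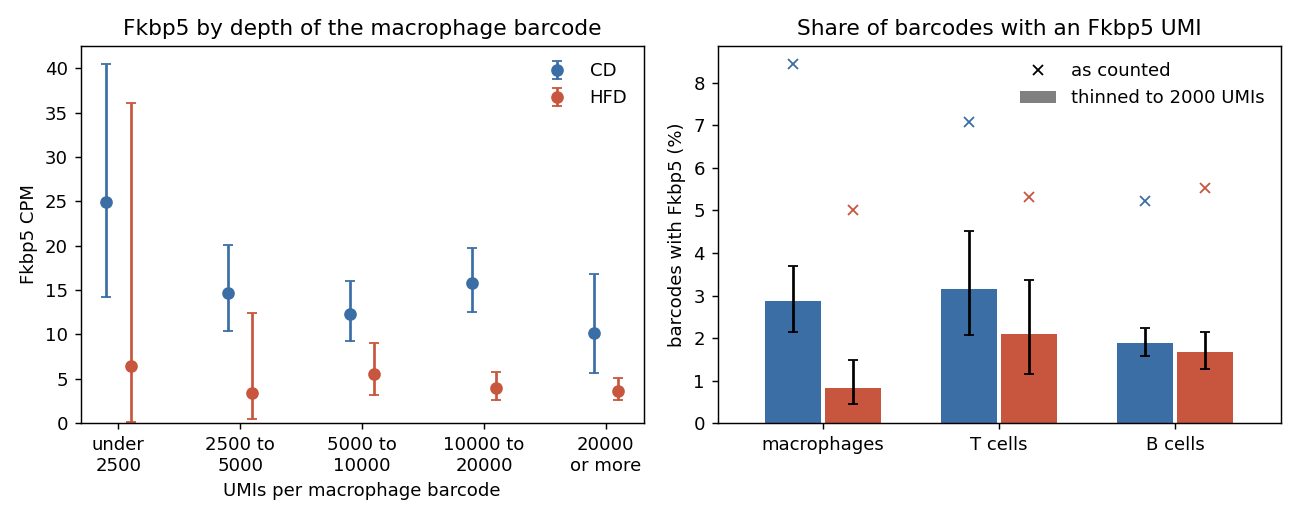
Left, Fkbp5 in CPM (vertical axis) by the UMIs of the macrophage barcode (horizontal axis) with exact Poisson 95% intervals, CD in blue and HFD in red. Right, the share of barcodes with an Fkbp5 UMI in percent, as bars thinned to 2000 UMIs with exact binomial 95% intervals and as crosses before thinning. The HFD points lie below the CD points in each depth range, and the thinned share in macrophages is 2.86% in CD and 0.824% in HFD.

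Within macrophages the difference did not follow Timd4, a phosphatidylserine receptor of long-lived resident cells. Fkbp5 was at 13.6 CPM in CD against 3.73 in HFD where Timd4 was detected (log2 ratio -1.86; -2.55 to -1.22), and at 14.95 and 4.23 CPM where it was not (-1.82; -2.31 to -1.35). The summed level of the cell cycle genes Mki67, Top2a, Cdk1, Birc5 and Ccnb2 was 35.1 CPM in CD macrophages where HFD macrophages had 128. A UMI of any of them was seen in 5.04% and 26.1% of barcodes, at unequal median depths of 4873 and 12309 UMIs. Without these barcodes Fkbp5 was at 14.4 and 3.03 CPM (log2 ratio -2.25; -2.77 to -1.75), and within them at 13.4 and 6.07 CPM (-1.14; -2.04 to -0.15). In macrophages with no UMI of the 3 B markers, 588 in CD and 566 in HFD, it was at 13.7 and 4.43 CPM (-1.63; -2.27 to -1.0). After subtraction of B-cell RNA the ratio was -1.92, so the result was as large without that RNA.

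In T cells, barcodes with Cd4 and no Cd8a or Cd8b1 had Fkbp5 at 21.5 CPM in CD against 12.1 in HFD (-0.83; -1.91 to 0.17), and barcodes with Cd8a or Cd8b1 and no Cd4 at 10.3 and 6.85 CPM (-0.60; -1.94 to 0.75). Both pointed down, and neither difference was detectable at 11 to 27 UMIs per sum. T barcodes without a B-marker UMI had 20.8 CPM in CD against 11.4 in HFD (-0.87; -1.90 to 0.15), where the interval reached past 0, and after subtraction of B-cell RNA the ratio in all T cells was -0.91. Without T barcodes that held 2 or more UMIs of the 3 B markers it was -0.66 (-1.38 to 0.06), with no difference detectable.

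In B cells the small difference was not seen in barcodes with few or no marker UMIs of macrophages and T cells. B barcodes with fewer than 2 macrophage-marker UMIs and no T-marker UMI, 5590 in CD and 2549 in HFD, had Fkbp5 at 8.99 and 8.42 CPM (log2 ratio -0.09; -0.40 to 0.20), so no difference was detectable there. With 0 UMIs of either, a setting added after the data were seen, the ratio was 0.03 (-0.35 to 0.40). B-1 cells are the innate-like B cells of the cavity. Barcodes with more B-1 than B-2 marker UMIs were at 13.1 CPM in CD against 9.40 in HFD (-0.48; -0.86 to -0.12). Barcodes with more B-2 marker UMIs, conventional B cells, were at 9.11 and 7.12 CPM (-0.36; -0.72 to 0.002). Barcodes with equal UMIs of both were at 9.42 and 12.1 CPM (0.36; -0.44 to 1.14). In CD the B-1 and B-2 markers summed to 308 and 565 CPM in T cells, where B cells had 271 and 782. The part of T-cell RNA in this split was not tested. By heavy-chain contig, cells with IGHM and neither IGHD nor a switched isotype were at 10.2 and 8.42 CPM (-0.28; -0.53 to -0.03). The IGHD and switched groups held 9 Fkbp5 UMIs or fewer per library, too few to compare.

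Tsc22d3 was lower in HFD in all 3 classes, and its lymphocyte values were the most precise of the set. In B cells it was at 363 CPM (357 to 369) in CD and 212 CPM (207 to 218) in HFD, from 14314 and 5624 UMIs (log2 ratio -0.77; -0.82 to -0.73). In T cells it was at 281 CPM (266 to 297) and 147 CPM (136 to 159), at a log2 ratio of -0.93 (-1.07 to -0.79). In macrophages it was at 99.6 CPM (94.5 to 105) and 52.0 CPM (49.0 to 55.3), at a log2 ratio of -0.94 (-1.05 to -0.82). As counted, no difference of the ratios in macrophages and T cells was detectable (-0.01; -0.19 to 0.17). Without barcodes of 2 or more B-marker UMIs, the ratio was -0.61 (-0.77 to -0.45) in macrophages and -1.0 (-1.19 to -0.81) in T cells. After subtraction of B-cell RNA it was -0.40 and -0.81.

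The estimated B-cell RNA moved with the macrophage value of Tsc22d3, a gene 3.64-fold higher in CD B cells than in CD macrophages. By the estimate, that RNA was 44.6% of the macrophage CPM in CD and 10.9% in HFD. After its subtraction Tsc22d3 was at 62.9 CPM in CD macrophages and 47.6 in HFD macrophages, a log2 ratio of -0.40. In macrophages without a B-marker UMI it was at 68.9 and 45.8 CPM (-0.59; -0.82 to -0.36). The direction stayed and the size fell by more than 1.5 times. In T cells subtraction gave 249 and 142 CPM, a log2 ratio of -0.81, and T barcodes without a B-marker UMI were at 262 and 139 CPM (-0.92; -1.19 to -0.64).

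The lower Tsc22d3 ran through the lymphocyte subsets. In B cells it was at -0.74 (-0.82 to -0.66) in B-1-type and -0.73 (-0.79 to -0.67) in B-2-type barcodes, from levels of 294 and 404 CPM in CD. Cells with an IGHD contig were at -0.78 (-1.14 to -0.43) and switched cells at -0.69 (-1.04 to -0.35). Among T cells, Cd4 barcodes were at 271 CPM in CD against 134 in HFD (-1.02; -1.31 to -0.73), and Cd8 barcodes at 320 and 152 CPM (-1.07; -1.31 to -0.83). In B barcodes with fewer than 2 macrophage-marker UMIs and no T-marker UMI the ratio was -0.83 (-0.89 to -0.78), so it was as large there. Thinned to 2000 UMIs, Tsc22d3 was found in 51.0% of CD and 34.9% of HFD B cells, in 42.3% and 25.8% of T cells and in 18.5% and 10.7% of macrophages. Before thinning the macrophage shares were 39.6% and 43.0%, in the opposite order, at the greater depth of HFD macrophages.

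Ddit4 was mainly a lymphocyte transcript and was lower in HFD in each class. It was at 36.7 CPM (31.4 to 42.6) in CD T cells and 24.6 CPM (20.2 to 29.7) in HFD T cells, from 173 and 108 UMIs (log2 ratio -0.58; -0.94 to -0.22). In B cells it was at 21.4 CPM (19.96 to 22.9) and 15.2 CPM (13.7 to 16.7), at a log2 ratio of -0.49 (-0.67 to -0.32), with B-1-type barcodes at -0.80 (-1.08 to -0.52) and B-2-type at -0.39 (-0.64 to -0.14). In macrophages it was at 5.17 CPM (4.06 to 6.51) and 1.61 CPM (1.11 to 2.27), from 73 and 33 UMIs (log2 ratio -1.68; -2.32 to -1.07). B-cell RNA was estimated to give 50.6% of that macrophage level in CD and 25.2% in HFD. After subtraction the levels were 2.91 and 1.24 CPM (-1.23). In macrophages without a B-marker UMI the ratio was -1.28 (-2.60 to 0.03), and among macrophages of 4000 to 12000 UMIs it was -0.52 (-1.54 to 0.43), with no difference detectable in either.

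Per1 was lower in HFD macrophages, and no lower level was detectable in lymphocytes. In macrophages it was at 12.2 CPM (10.4 to 14.2) in CD and 6.36 CPM (5.31 to 7.55) in HFD, from 172 and 130 UMIs (log2 ratio -0.94; -1.28 to -0.60). In T cells it was at 19.9 CPM (16.1 to 24.4) and 19.1 CPM (15.3 to 23.7), with no difference detectable (-0.06; -0.50 to 0.38). In B cells it was at 14.0 CPM (12.9 to 15.2) and 15.6 CPM (14.1 to 17.1), at a log2 ratio of 0.15 (-0.04 to 0.34). B-2-type barcodes were at 0.30 (0.06 to 0.54) and B-1-type at 0.15 (-0.20 to 0.51). B barcodes with fewer than 2 macrophage-marker UMIs and no T-marker UMI were at 0.25 (0.03 to 0.47). The macrophage difference rested on deep barcodes. It was at -0.08 (-0.80 to 0.62) among those of 5000 to 10000 UMIs, at -1.14 (-1.72 to -0.58) from 10000 to 20000, and at -0.37 (-0.96 to 0.20) from 4000 to 12000, while it was -0.97 after subtraction of B-cell RNA.

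Klf9 and Sgk1 were the macrophage genes of the set, and neither was much lower there. Klf9 was at 74.8 CPM (70.3 to 79.4) in CD macrophages and 64.9 CPM (61.4 to 68.4) in HFD macrophages (log2 ratio -0.21; -0.32 to -0.09), or -0.33 after subtraction of B-cell RNA. Sgk1 was at 83.7 CPM (79.0 to 88.6) and 87.2 CPM (83.2 to 91.4), with no difference detectable (0.06; -0.05 to 0.17). In CD macrophages Klf9 was 6.97-fold and Sgk1 6.002-fold above their levels in B cells, and 61.9% of all Klf9 UMIs and 55.3% of all Sgk1 UMIs of the CD library lay in macrophages.

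In lymphocytes both were at lower levels than in macrophages. Klf9 was at 14.4 CPM (11.2 to 18.3) and 13.0 CPM (9.84 to 16.8) in T cells (-0.15; -0.68 to 0.38), and at 10.7 CPM (9.73 to 11.8) and 7.70 CPM (6.68 to 8.83) in B cells (log2 ratio -0.48; -0.73 to -0.23). Sgk1 in B cells was at 13.9 CPM (12.8 to 15.2) and 10.9 CPM (9.65 to 12.2), at a log2 ratio of -0.36 (-0.57 to -0.15). Macrophage RNA was estimated to give 52.8% of the Klf9 and 45.5% of the Sgk1 level of CD B cells. B barcodes with fewer than 2 macrophage-marker UMIs and no T-marker UMI had Klf9 at -0.19 (-0.58 to 0.19) and Sgk1 at -0.12 (-0.42 to 0.18). No difference was detectable in either. In T cells Sgk1 was higher in HFD, at 28.4 CPM (23.8 to 33.6) in CD and 37.8 CPM (32.3 to 44.0) in HFD (log2 ratio 0.41; 0.08 to 0.75), the single ratio of the 18 above 0 with its whole interval. T barcodes without a B-marker UMI were at 23.0 and 49.0 CPM (1.09; 0.37 to 1.86), and those with 1 or more at 29.7 and 32.1 CPM (0.11; -0.30 to 0.52).

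**Figure D3:**
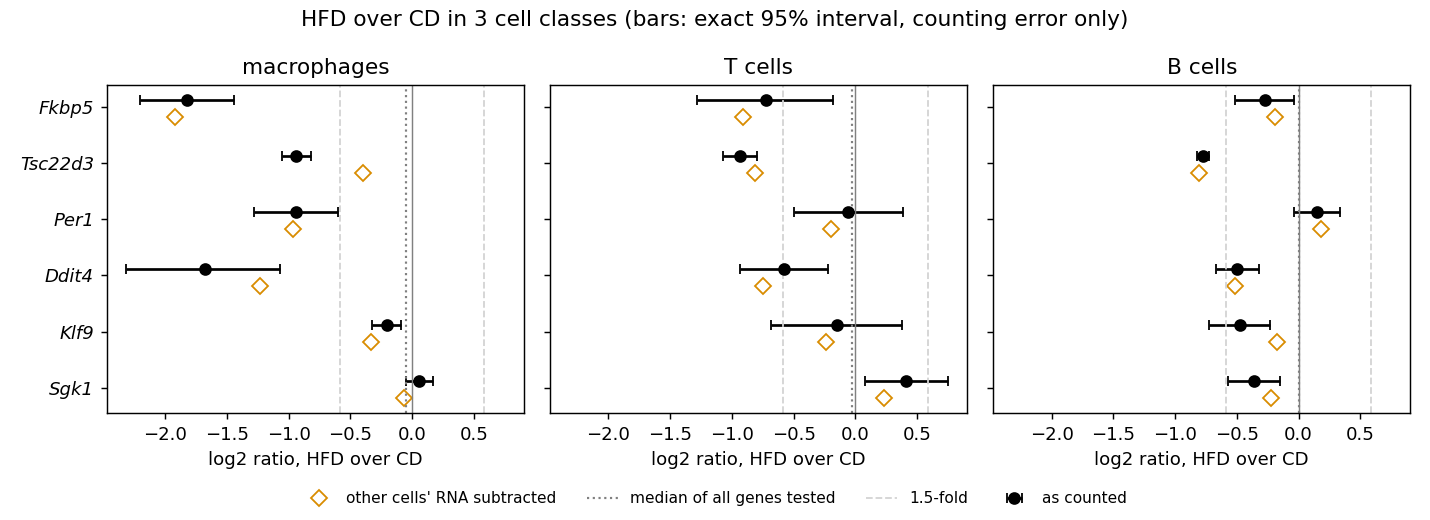
Log2 ratio of HFD over CD (horizontal axis) for the 6 genes in each class, with filled points and exact 95% intervals as counted and open diamonds after subtraction of other cells' RNA. Dashed lines mark 1.5-fold and the dotted line the median of all genes tested. Fkbp5 moves from -1.82 in macrophages to -0.73 in T cells and -0.27 in B cells, and subtraction brings Tsc22d3 in macrophages from -0.94 to -0.40.

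Counted by a difference of 1.5-fold or more, 4 of the 6 genes were lower in HFD macrophages, and 10.4% of the 11294 genes with 50 or more UMIs over both macrophage sums were that much lower. Since that contrast led to the choice of these genes, nothing is read from the count. In T cells Fkbp5 and Tsc22d3 were that much lower, 2 of 6, against 8.3% of 9442 genes. In B cells only Tsc22d3 was, 1 of 6, against 5.27% of 12347 genes. None was 1.5-fold higher in any class, against 6.13%, 4.68% and 5.22% of all genes. The median log2 ratio of the 6 was -0.94 in macrophages, -0.36 in T cells and -0.42 in B cells, and that of all genes tested -0.05, -0.03 and 0.01. All 6 had 50 or more UMIs in each class. In macrophages the count was 3 after subtraction of B-cell RNA, against 7.96% of all genes, and 2 among barcodes of 4000 to 12000 UMIs, against 9.93%. In T cells it was 3 in both, against 8.68% and 8.48%.

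**Figure D4:**
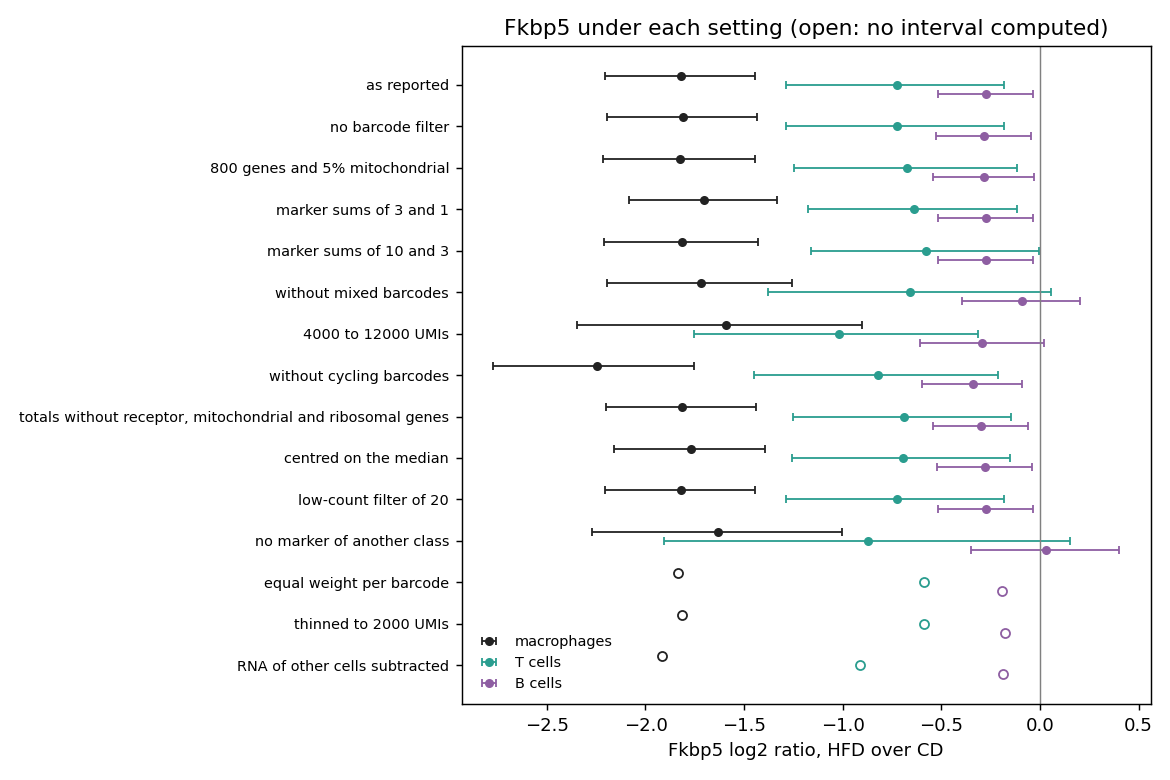
Fkbp5 log2 ratio of HFD over CD (horizontal axis) under each processing setting (rows) in macrophages (black), T cells (green) and B cells (purple), with exact 95% intervals, open circles where none was computed. Macrophages stay between -2.25 and -1.59, T cells between -1.02 and -0.58, and B cells between -0.34 and 0.03.

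The level of the receptor itself was much the same in macrophages of both libraries. Nr3c1, the glucocorticoid receptor, was at 91.9 CPM in CD against 88.2 in HFD macrophages (-0.06; -0.16 to 0.04), at -0.18 in T cells and -0.23 in B cells. Hsd11b1, the enzyme that regenerates active hormone inside cells, was at 23.0 and 23.1 CPM in macrophages (0.00; -0.20 to 0.21), and at 51.1 and 76.4 CPM in T cells (0.58; 0.34 to 0.82), or 0.28 after subtraction of B-cell RNA. Fkbp4, which encodes FKBP52, was at -0.07 in macrophages, -0.14 in T cells and -0.38 in B cells. Of 17 measured genes of the receptor and cofactor list, 2 were 1.5-fold lower and 1 higher in macrophages, with a list median of -0.07. The shares of all genes were 10.4% and 6.13%, so these counts were near them. The lower ones on the list were Nr3c2, the mineralocorticoid receptor (-1.02), and Hspa8, a constitutive chaperone (-0.80). Nr3c2 was higher in HFD B cells, at 20.7 and 39.2 CPM (0.92; 0.79 to 1.06). Abcb1a, an efflux pump that exports steroids, was higher in macrophages (1.62) at only 0.780 and 2.40 CPM. The list median was -0.18 in T cells and -0.14 in B cells, with 1 of 17 and 0 of 16 genes 1.5-fold lower. The shares of all genes were 8.3% and 5.27%.

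Other genes known to be induced by glucocorticoids were divided. Of 29 listed, 25 were measured in macrophages, with a median of -0.40. Of these, 6 were 1.5-fold lower and 3 higher, against 10.4% and 6.13% of all genes. After subtraction of B-cell RNA 8 were lower and 3 higher, against 7.96% and 6.84%, with a median of -0.51. As counted, the largest ratios on the list were those of the chemokine receptor Cxcr4 (-3.37), the pyruvate dehydrogenase kinase Pdk4 (2.89) and the interleukin-7 receptor Il7r (-1.85). Pdk4 is also a fatty acid-sensing PPAR target. For Cxcr4 and Il7r, B-cell RNA was estimated to give 73.6% and 55.5% of the CD level, and after subtraction they were at -3.03 and -1.06. In T cells 5 of 18 measured genes were 1.5-fold lower and 1 higher, with a median of -0.28, or 6 and 3 and -0.29 after subtraction. In B cells 9 of 23 were lower and 1 higher, against 5.27% and 5.22% of all genes, with a median of -0.21. After subtraction of macrophage RNA 4 were lower and 2 higher of the 21 with a value, with a median of -0.09. The shares of all genes were then 4.44% and 6.33%. Cxcr4 and Il7r were lower in B cells too, at -1.39 (-1.59 to -1.20) and -1.56 (-1.79 to -1.33), with under 2% of their level from macrophage RNA. Il7r was at 503 CPM in CD T cells and 425 in HFD T cells, and the part of T-cell RNA in its B-cell values was not tested.

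Of the genes that glucocorticoids repress, 11 were measured in macrophages. None was 1.5-fold lower and 6 were that much higher, against 6.13% of all genes, with a median of 0.71, or 5 higher and 0.58 after subtraction, against 6.84%. Of the 11, 3 were below 0, among them the neutrophil chemokine Cxcl1 (-0.25; -0.34 to -0.15), chosen after its value was seen. The monocyte chemokines Ccl2 and Ccl7 were at 2.54 and 2.23, and Ccl4 went from 3.69 CPM in CD to 9.78 in HFD (1.41; 0.96 to 1.88). In T cells only 3 were measured, 1 of them higher, against 4.68% of all genes, with a median of 0.00. In B cells 9 were measured, with a median of 0.02. Of these, 2 were lower and 2 higher, against 5.27% and 5.22% of all genes. Ccl2 and Ccl7 in B cells were at 5.17 CPM or less, with 59.8% or more of the level from macrophage RNA in each library.

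**Figure D5:**
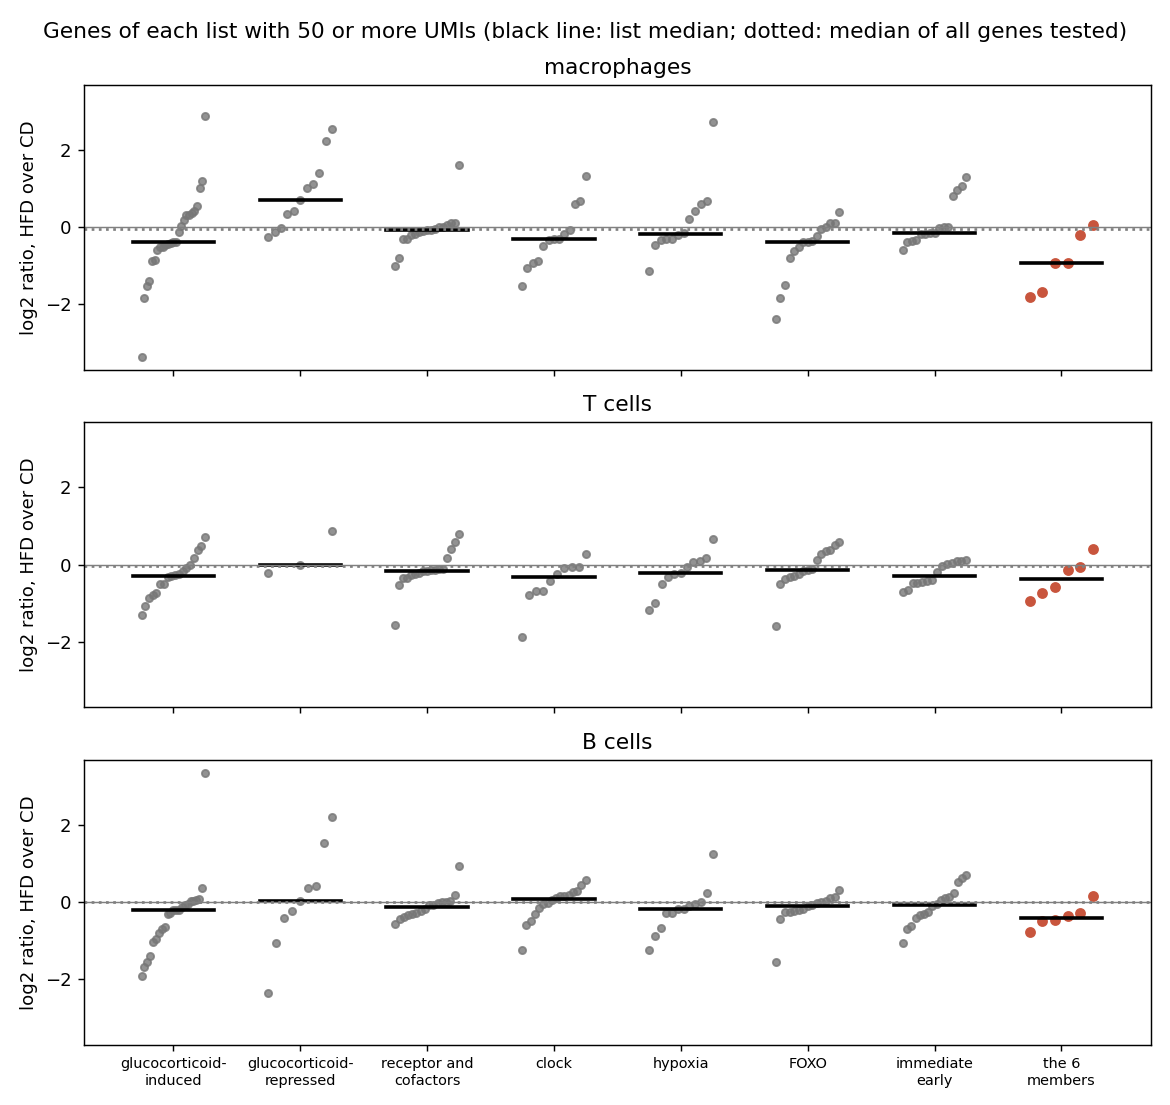
Log2 ratio of HFD over CD (vertical axis) of each gene with 50 or more UMIs on 7 lists (grey) and of the 6 genes (red), in macrophages, T cells and B cells from top to bottom. Black lines are medians. In macrophages the repressed list has a median of 0.71, the induced list -0.40 and the 6 genes -0.94.

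Per1 is also a clock gene, and clock genes follow the time of day. Of 13 measured clock genes in macrophages, Per1 included, 4 were 1.5-fold lower and 3 higher, against 10.4% and 6.13% of all genes. The median of the clock genes was -0.31. The largest ratios were those of Bhlhe41 (-1.54), for which B-cell RNA was estimated to give 73.5% of the CD level, the repressor Nr1d1 (1.32; 0.50 to 2.22), at 1.13 and 2.84 CPM, and Tef (-1.05). Arntl, which encodes the activator BMAL1 and was looked at after its value was seen, was higher in HFD macrophages at 17.9 and 28.7 CPM (0.68; 0.47 to 0.90) and lower in T cells (-0.79; -1.25 to -0.34). Of 10 measured in T cells, 4 were lower and 0 higher (median -0.33), against 8.3% and 4.68% of all genes. Of 16 in B cells 2 were lower and 0 higher (median 0.08), against 5.27% and 5.22%. The part of the collection hour in the Per1 difference was not tested.

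Ddit4 and Tsc22d3 answer to other pathways, whose lists gave mixed values. Of 12 hypoxia genes measured in macrophages, 1 was lower and 3 higher (median -0.18), against 10.4% and 6.13% of all genes. Car9, carbonic anhydrase 9, was at 2.73 from 0.354 CPM in CD, Ankrd37 at -1.14 (-0.44 after subtraction of B-cell RNA) and Mxi1 at 0.69. Ankrd37 was lower in B cells as well, at 70.4 and 29.7 CPM (-1.25; -1.36 to -1.13), and the hypoxia medians were -0.22 in T cells and -0.18 in B cells. Of 15 FOXO targets and factors, 5 were lower and 0 higher in macrophages (median -0.38), against 10.4% and 6.13% of all genes. Ccr7 (-2.39), Il7r and Pik3ip1 (-1.49) led them. B-cell RNA was estimated to give 92.8% and 106% of the CD levels of Ccr7 and Pik3ip1. After subtraction 2 were lower and 1 higher of 14, against 7.96% and 6.84%. In T cells and B cells 1 of 15 was lower in each, against 8.3% and 5.27%, with medians of -0.14 and -0.10.

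Immediate early genes, which handling of cells can induce, had 0 lower and 4 higher of 15 in macrophages (median -0.14). The shares of all genes were 10.4% and 6.13%. Nr4a1 was at 1.31, Klf4 at 1.06 and Egr2 at 0.97. The medians of the list were -0.30 in T cells and -0.09 in B cells. There 2 of 14 and 3 of 16 were lower, against 8.3% and 5.27% of all genes. The part of handling in the results was not tested.

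Relatives of the set were counted in the same way. Of 12 measured FKBP family genes in macrophages, 0 were 1.5-fold lower and 1 higher, against 10.4% and 6.13% of all genes, with a median of 0.01: the secretory FKBP Fkbp11 was at 0.85, Fkbp14 at -0.54 (-1.38 to 0.31), or -0.67 after subtraction of B-cell RNA, and Fkbp1b at 0.49. In T cells Fkbp11 was lower (-2.11), with 81.1% of its CD level from B-cell RNA, and the family medians were -0.10 in T cells and -0.15 in B cells. Of the TSC22 family, Tsc22d1 was at 0.77 and Tsc22d2 at -0.45 in macrophages, and the medians of these 2 were -0.27 in T cells and 0.19 in B cells. Of 10 other Krüppel-like factors, 1 was lower and 1 higher in macrophages, near the 10.4% and 6.13% of all genes, with a median of 0.03. They were Klf12 (-2.57), which went from 3.47 to 0.587 CPM, and Klf4, while Klf11 was at 0.50. The medians of these factors were -0.02 in T cells and -0.10 in B cells.

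Across the 10 sums of macrophages, Cd4 T cells, Cd8 T cells, B-1-type and B-2-type cells in both libraries, the genes most like Fkbp5 by Pearson's r of log2(CPM + 1) were Ndufb10 (0.90), Zfp207 (0.83), Med28 (0.83), Srp14 (0.83) and Zfp110 (0.81), of 7607 genes of 20 CPM or more in at least 1 sum. Their own ratios in macrophages were between -0.63 and -0.19, so none moved as far as Fkbp5. Among the 6 genes the highest r was that of Klf9 and Sgk1 (0.82), and the lowest that of Tsc22d3 and Klf9 (-0.75). These 10 sums share 2 libraries and their RNA of other cells, and the correlations are descriptions.

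Within macrophages, Sgk1 was higher in barcodes that held Fkbp5, and so were Klf9 and Tsc22d3 in CD. In CD, Sgk1 was at 108 CPM in the 181 barcodes with Fkbp5 and 80.2 in the other 1963 (a log2 ratio of 0.43; 0.20 to 0.66), and Tsc22d3 at 116 and 97.2 CPM (0.26; 0.04 to 0.47). Klf9 was at 89.8 and 72.6 CPM in CD (0.31; 0.06 to 0.55). In HFD, Sgk1 was at 0.29 (0.04 to 0.53), Tsc22d3 at 0.16 (-0.18 to 0.49) and Klf9 at -0.005 (-0.32 to 0.30). For Per1 and Ddit4 no difference was detectable in either library. Barcodes with Fkbp5 were deeper, with a CD median of 8257 UMIs where barcodes without it had 4701, and HFD medians of 18584.5 and 11986.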

How the data were processed

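Single-cell expression and B-cell receptor libraries of CD45-sorted peritoneal cells were used, 1 of each per diet. The deposited matrices hold UMI counts per gene and barcode, without normalization, written by Cell Ranger 8.0.1 per the file headers; Cell Ranger 6.0.1, Seurat 4.3.0 and build mm39 are listed in the submitters' processing notes. Settings of cell calling are not given in the sources used here. The deposited receptor tables, which give counts of reads and UMIs per contig, were used only for which barcodes hold a contig and for heavy-chain isotypes. Doublets were not called; mixed barcodes were handled by the marker and contig rules and by alternatives.

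UMIs were summed per class and library (Python 3.11.15, SciPy 1.17.1). CPM carry exact Poisson intervals, shares exact Clopper-Pearson intervals, and log2 ratios the exact conditional interval of 2 Poisson counts; differences of ratios combine these intervals. Thinned shares are expectations over draws of 2000 UMIs, computed exactly. Other cells' RNA was subtracted as the profile of the source class, scaled by its markers; 1 planned B-cell marker is not reported here and entered no value. With 1 library per diet no test is possible. The ratio and its interval were checked on simulated counts.

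Members, lists and settings were chosen with earlier results of these data known. Named are all 6 members, the 3 genes of largest absolute ratio in macrophages on each list, Nr3c1, Hsd11b1, Fkbp4 and the 5 genes most like Fkbp5; others are marked in the text. Library totals were 73549582 UMIs in CD and 57630074 in HFD.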

Additional observations from a re-analysis of the deposited data

Results flagged for a closer look

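Sgk1, the AKT-related kinase, stood on opposite sides of 0 in the 2 kinds of lymphocyte: it was higher in HFD T cells, at a log2 ratio of 0.41 (0.08 to 0.75), and lower in HFD B cells, at -0.36 (-0.57 to -0.15). The difference of these ratios, 0.77 (0.38 to 1.17), carries counting error only and was not tested over samples. After subtraction of other cells' RNA the ratios were 0.23 in T cells and -0.22 in B cells. Within T cells no difference was detectable in Cd4 barcodes (0.36; -0.40 to 1.13) or Cd8 barcodes (0.09; -0.49 to 0.69). T barcodes with neither or both of these were at 0.58 (0.06 to 1.10). In B barcodes with fewer than 2 macrophage-marker UMIs and no T-marker UMI, no difference was detectable (-0.12; -0.42 to 0.18). Nor was one in T cells at marker sums of 10 and 3 (0.33; -0.006 to 0.68).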

How the results depend on the processing

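Of 14 alternative settings, the Fkbp5 ratio kept its direction in macrophages and T cells in all 14 and in B cells in 13. It moved to -2.25 in macrophages without cycling barcodes and to 0.030 in B cells with no macrophage- or T-marker UMI. Some settings could not change it: the low-count filter of 20 leaves every ratio as it was. Marker sums of 3 and 1 or of 10 and 3 leave the B cells, which are defined by contigs, as they were. Agreement under these settings therefore carries no information. The thinned ratio is an expectation, the mean share per barcode over barcodes of 2000 or more UMIs. It differs from equal weight per barcode only in leaving out shallower barcodes. The macrophage ratio stayed below that of T cells (differences of -1.43 to -0.57) and of B cells (-1.91 to -1.30) in all 14. However, the interval of the difference from T cells reached past 0 at 4000 to 12000 UMIs (-0.57; -1.61 to 0.43). The same held in barcodes with no B-marker UMI (-0.76; -1.97 to 0.45). The count of genes 1.5-fold lower in HFD in macrophages was 2 at 4000 to 12000 UMIs and 3 with equal weight per barcode, thinning or subtraction. In T cells it was 1 at marker sums of 10 and 3. It was 3 at 800 genes and 5% mitochondrial, at 4000 to 12000 UMIs, with no B-marker UMI or after subtraction. In B cells it was 2 at 4000 to 12000 UMIs, with equal weight per barcode or with no macrophage- or T-marker UMI. As counted, 10.4%, 8.3% and 5.27% of all genes were that much lower in macrophages, T cells and B cells. The shares were 9.93%, 8.48% and 5.98% at 4000 to 12000 UMIs and 7.96%, 8.68% and 4.44% after subtraction. For the other settings no share is given, so nothing is read from those counts. Tsc22d3 kept its direction in all classes, between -0.94 and -0.40 in macrophages, and Sgk1 in macrophages changed sign in 4 settings, between -0.15 and 0.16. The cause of these shifts was not tested. Receptor, mitochondrial and ribosomal genes left out of the totals, or ratios centred on the median gene, changed no count. No paired analysis was possible because each diet has 1 library and the result comes from no test. Counting depth limits Fkbp5 in T-cell subsets and Ddit4 in macrophages.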

Other observations

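In barcodes of no class, 2795 in CD and 759 in HFD, Tsc22d3 was at 307 CPM in CD against 156 in HFD, and Fkbp5 at 12.7 (10.97 to 14.6) and 10.3 (7.84 to 13.2). Sgk1 was at 17.9 and 34.3 CPM there. A B marker was seen in 96.2% of these barcodes in CD and 88.1% in HFD, and B markers summed to 6722.5 and 5128 CPM. Natural killer markers summed to 24.2 and 122 CPM and dendritic cell markers to 144 and 210 CPM. The part of this unequal make-up in the values was not tested. Over all kept barcodes, without regard to class, Fkbp5 stood at 11.98 CPM for CD and 7.23 for HFD, and Tsc22d3 at 296 and 144.

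T cells with an Fkbp5 UMI held more Ddit4. In CD it was at 80.8 CPM in the 72 T barcodes with Fkbp5 and 31.8 in the other 946, a log2 ratio of 1.35 (0.79 to 1.88), and in HFD at 44.7 and 23.2 CPM (0.95; -0.01 to 1.79). Klf9 was higher in HFD T barcodes with Fkbp5 (1.58; 0.43 to 2.59), with no difference detectable in CD (0.05; -1.32 to 1.18). In B cells Tsc22d3 was lower with Fkbp5, at 296 CPM against 369 without in CD and 173 against 216 in HFD. Both log2 ratios were -0.32. In CD B cells Klf9 (0.62; 0.16 to 1.05) and Sgk1 (0.52; 0.11 to 0.91) were higher with Fkbp5, and in HFD B cells no difference was detectable for either. Median depth was 4954 against 3628.5 UMIs in CD T cells and 7273.5 against 4531 in CD B cells, and its part in these values was not tested.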
